A study of Arabidopsis thaliana with 38 samples.

Results

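Transcripts of 4 regulators tied to the plant hormone abscisic acid were followed across 13 Arabidopsis lines: AFP1 (AT1G69260, probe set 260357_at), AFP3 (AT3G29575, 255723_at), ATHB-7 (AT2G46680, 266327_at) and AT5G50360 (248505_at). They are 4 of the 22746 probe sets on the ATH-1 array that are not array controls, and all 4 were among the 16651 with at least 1 line mean, taken on the log2 scale, above a signal of 91.1. AFP1, AFP3 and ATHB-7 passed this level in every line, whereas AT5G50360 passed it in 4 reduced lines and in 0 of the 4 control lines, so it was tested only through lines in which it is high. The 4 genes were chosen by their log2 changes in these same lines, so their differences between reduced and control lines are given as a description, with standard errors and 95% intervals. No p-value is printed for them, and counts of how many passed a threshold describe the choice and test nothing. The probe table used here names the gene of the AT5G50360 probe set alone, and the names of the other 3 probe sets came with the choice of genes.

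Abscisic acid accumulates in drying plants and developing seeds, closes stomata, delays germination and switches on protective genes. Its receptors inhibit clade A protein phosphatases, which frees SnRK2 kinases to activate bZIP transcription factors such as ABI5. The same signal also induces its own brakes: AFP proteins bind ABI5 and dampen the response, and homeodomain factors such as ATHB-7 are induced by water deficit and limit growth and hormone signalling. HSP90 is a cytosolic chaperone that helps many signalling proteins to fold.

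The study asked how expression differs in plants with less HSP90. All lines were in the Col-0 accession, and every sample was RNA from the pooled aerial tissue of seedlings aged 14 days, grown in long days on GM medium. RNAi-A1, RNAi-A2 and RNAi-A3 carry a hairpin from 1 fragment of HSP90.1, RNAi-B1 carries another fragment of HSP90.1, and RNAi-C1 a fragment of HSP90.2, all driven by the cauliflower mosaic virus 35S promoter with a GFP spacer. Control-1, Control-2 and Control-3 carry the GFP construct without HSP90 sequence. HSP90.1-TDNA, HSP90.2-TDNA and also HSP90.3-TDNA are Salk insertion lines in the named gene. The line hsp90.2-3 is a point mutant of HSP90.2, and Col-0 (CS60000) is the wild type for these lines. The paper reports significantly lower HSP90 protein in every RNAi and insertion line except HSP90.1-TDNA. In that line it reports HSP90.1 transcript close to undetectable. It gives no protein level for hsp90.2-3. The term reduced line is used here for all RNAi, insertion and point mutant lines, whatever their protein level. Each RNAi and vector control line comes from 1 transformation event, so the transgene's place of insertion cannot be told apart from its product within a line.

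RNAi-A1, RNAi-A3 and RNAi-A2 had 2 biological samples each, as did Control-2, and the other 9 lines had 3. Control-2 was run with RNAi-A1 and RNAi-A3. A larger experiment held RNAi-B1, RNAi-C1 and RNAi-A2 with Control-1 and Control-3, and a further one held the insertion lines with Col-0. The experiment of hsp90.2-3 is not named in the sources used here. It was compared with Col-0, and its batch cannot be told apart from its mutation. The labels do not say how far samples of a line were separate cultures, so the errors measure the spread between these samples.

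Of 38 arrays, 37 were used, with median signals of 171 to 221. The first array of RNAi-A3 sample 2 had failed (correlation with the median profile 0.499, against 0.975 to 0.987 for the others) and was left out, so that sample rests on its second array. No probe set used here is named for HSP90, so the reduction itself is not analysed here. The tissue label was checked with 12 leaf and 10 root markers, of which 1 and 2 had a named probe set. The leaf marker RCA had signals of 15796 to 24497, and the root hair genes EXPA7 and EXPA18 had 5.98 to 139 and 16.9 to 173. Being bulk samples, they cannot tell more cells that express a gene from more RNA per cell.

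Signals are MAS5 values on a linear scale, and changes are differences of log2(signal + 16) from a limma model with 1 mean per line. A probe set was called at an adjusted p under 0.05 over all 16651.

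AFP1 encodes a repressor that binds the bZIP factor ABI5. In the experiment with Control-1 and Control-3 its signal was 464, 478 and 414 in Control-1 and 399, 316 and 217 in Control-3. RNAi-A2 gave 808 and 893, RNAi-B1 gave 800.0, 833 and 774, and RNAi-C1 gave 709.9, 686 and 531. All 8 RNAi samples lay above all 6 control samples. The log2 change was 1.17 for RNAi-A2 (SE 0.22, 95% interval 0.71 to 1.62), 1.09 for RNAi-B1 (SE 0.19, 0.69 to 1.48) and 0.76 for RNAi-C1 (SE 0.19, 0.37 to 1.16). The ratio of mean signals was thus 2.23, 2.11 and 1.68.

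In the experiment with Control-2, AFP1 gave 427 and 456 in the control, 574 and 647 in RNAi-A1 and 721 and 834 in RNAi-A3. No RNAi sample reached down to the control range. The log2 change was 0.45 in RNAi-A1 (SE 0.27, -0.10 to 1.01) and 0.79 in RNAi-A3 (SE 0.27, 0.24 to 1.35), and the interval of the first included 0.

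Among the lines set against Col-0 (511, 466 and 662), AFP1 was 371, 444 and 847 in HSP90.1-TDNA, 629, 530.4 and 797 in HSP90.2-TDNA and 748, 609.7 and 723 in HSP90.3-TDNA. These ranges all overlapped that of Col-0, and all 3 intervals included 0 (log2 changes of -0.05, 0.24 and 0.35, each SE 0.22). In hsp90.2-3 the signal was 1834, 1324 and 1366, well above every other sample of the series. Its log2 change was 1.44 (SE 0.22, 0.98 to 1.89), a ratio of mean signals of 2.76. The 847 of HSP90.1-TDNA sample 3 decided that line's value, which was -0.40 without it.

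AFP3 encodes a second ABI5-binding protein of the same family. It was even among the vector controls of the larger RNAi experiment, at 316, 344 and 360.4 in Control-1 and 331, 296 and 329.8 in Control-3. RNAi-A2 had 808 and 851, RNAi-B1 had 608, 734 and 765, and RNAi-C1 had 477, 394 and 375. RNAi-C1 thus lay above the controls by a narrow margin, and below both other RNAi lines in every sample. The log2 change was 1.29 (SE 0.15, 0.99 to 1.60) for RNAi-A2, 1.05 (SE 0.13, 0.79 to 1.32) for RNAi-B1 and 0.32 (SE 0.13, 0.05 to 0.58) for RNAi-C1.

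With Control-2 at 615 and 602, AFP3 was 869 and 1038 in RNAi-A1 and 787 and 1095 in RNAi-A3. Groups did not overlap, and the log2 changes were 0.63 (SE 0.18, 0.25 to 1.003) and 0.60 (SE 0.18, 0.22 to 0.97). Col-0 gave 488, 469.6 and 636. HSP90.1-TDNA gave 499, 554 and 728, HSP90.2-TDNA 630.1, 580.1 and 756, and HSP90.3-TDNA 695, 515 and 612. Ranges again overlapped Col-0, with log2 changes of 0.15, 0.30 and 0.19 (each SE 0.15) and intervals that included 0. The mutant hsp90.2-3 had 1201, 1068 and 1117, above every Col-0 sample, with a log2 change of 1.08 (SE 0.15, 0.77 to 1.38).

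**Figure D1:**
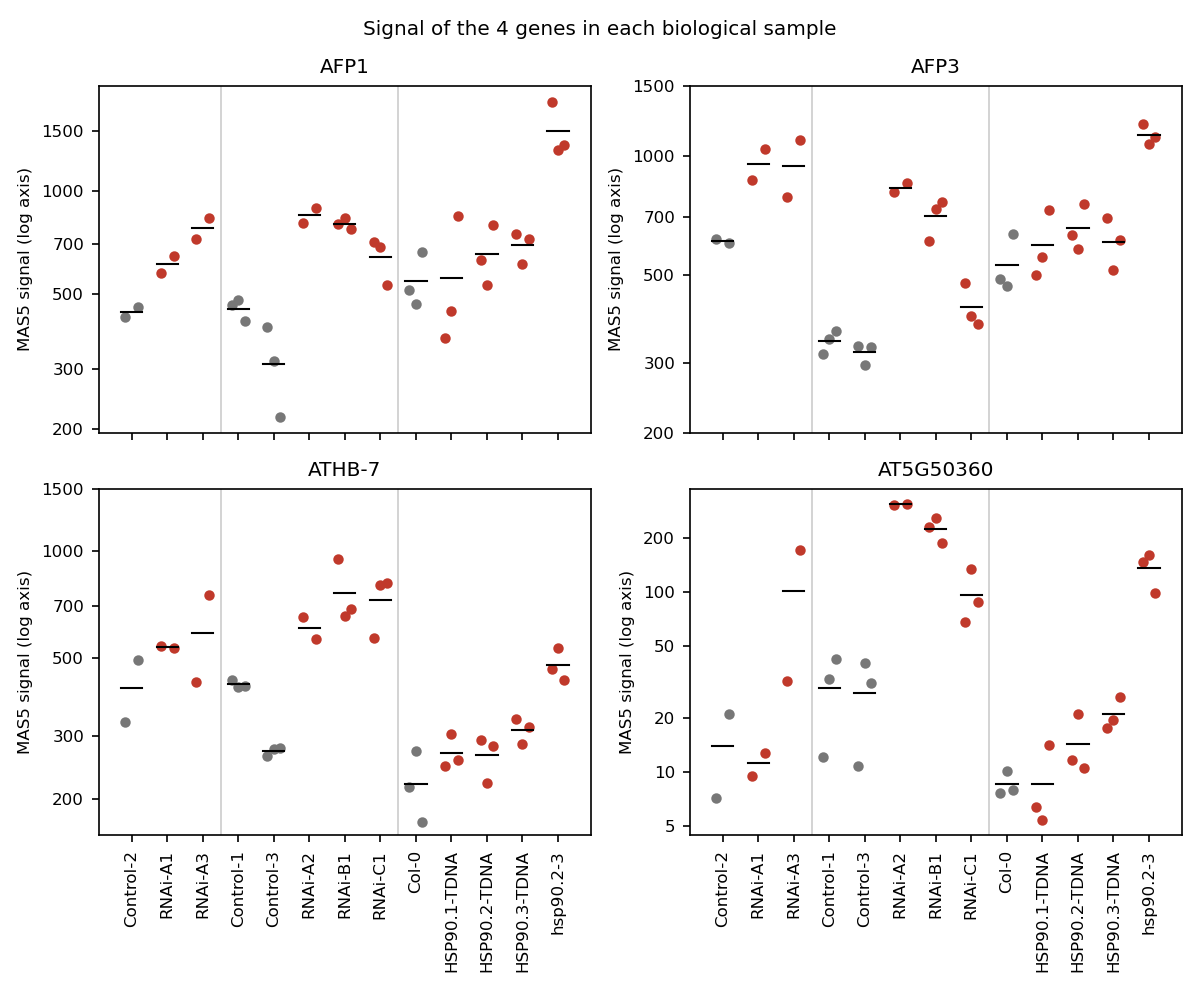
MAS5 signal (log axis) of AFP1, AFP3, ATHB-7 and AT5G50360 in each biological sample (points; grey controls, red HSP90-reduced lines), with the line's mean signal as a bar. Grey verticals part the Control-2 experiment, the Control-1 and Control-3 experiment, and the lines set against Col-0; hsp90.2-3 is highest for AFP1 and AFP3, RNAi-B1 for ATHB-7 and RNAi-A2 for AT5G50360.

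ATHB-7, an HD-Zip class I homeodomain factor, differed between the vector controls. It was 433, 414 and 415 in Control-1 and 265, 277 and 279 in Control-3, with no overlap. RNAi-A2 had 652 and 564, RNAi-B1 had 949, 655 and 685, and RNAi-C1 had 570.3, 804 and 811. Every one of these samples lay above the higher control line. The log2 change was 0.81 (SE 0.19, 0.42 to 1.19) for RNAi-A2, 1.11 (SE 0.16, 0.78 to 1.44) for RNAi-B1 and 1.05 (SE 0.16, 0.72 to 1.38) for RNAi-C1.

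Control-2 spread widely for ATHB-7, at 329 and 491. RNAi-A1 had 541 and 532 and RNAi-A3 had 426 and 751, so that RNAi-A3 overlapped its control. The log2 changes were 0.40 (SE 0.23, -0.07 to 0.87) and 0.48 (SE 0.23, 0.01 to 0.95). Single samples decided both, since the RNAi-A1 value was 0.12 without Control-2 sample 1 and the RNAi-A3 value 0.08 without its own sample 2.

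Col-0 had the lowest ATHB-7 mean of the series, with 216, 273 and 172. HSP90.1-TDNA had 248, 304 and 257, HSP90.2-TDNA 292, 222 and 281, and HSP90.3-TDNA 337, 286 and 318. HSP90.3-TDNA alone of these lay clear of Col-0 in all 3 samples, with a log2 change of 0.50 (SE 0.19, 0.11 to 0.88), against 0.29 and 0.26 (each SE 0.19) in the other two. In hsp90.2-3 the signal was 465, 533 and 433, a log2 change of 1.08 (SE 0.19, 0.69 to 1.46). These 3 values overlap the 329 and 491 of Control-2, and against all 4 control lines the change was 0.56.

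AT5G50360 belongs to a small family of abscisic acid-induced repressors of transcription. Its signal in the 11 control samples was 7.13 to 42.5, below the filter's level of 91.1, where the table gives no detection calls, so fold changes are not given. RNAi-A2 had 308.6 and 309, RNAi-B1 had 232, 259 and 189, and RNAi-C1 had 68.4, 135 and 88.3. Control-1 had 12.1, 33.1 and 42.5 and Control-3 had 10.8, 40.3 and 31.2. All 8 RNAi samples stood above these 6, in 3 tiers that did not overlap, with RNAi-A2 highest and RNAi-C1 lowest. On the log2(signal + 16) scale the change was 2.94 (SE 0.35, 2.23 to 3.65) for RNAi-A2, 2.51 (SE 0.30, 1.89 to 3.13) for RNAi-B1 and 1.38 (SE 0.30, 0.76 to 1.99) for RNAi-C1.

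The lines run with Control-2 (7.13 and 20.9) parted over AT5G50360. RNAi-A1 had 9.54 and 12.8, within the control range, and a log2 change of -0.11 (SE 0.42, -0.98 to 0.76). RNAi-A3 had 32.1 and 172, and its log2 change of 1.70 (SE 0.42, 0.83 to 2.57) became 0.72 without sample 2 and 2.68 without sample 1. RNAi-A1 and RNAi-A3 carry the same HSP90.1 fragment, and their difference was 1.81 (SE 0.42, 0.94 to 2.68).

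Col-0 had 7.64, 10.1 and 7.92 for AT5G50360. The insertion lines stayed at this low level, with 6.37, 5.43 and 14.1 in HSP90.1-TDNA, 11.6, 20.9 and 10.6 in HSP90.2-TDNA and 17.5, 19.5 and 26.3 in HSP90.3-TDNA. Their log2 changes of -0.01, 0.29 and 0.59 (each SE 0.35) all had intervals that included 0. All 3 samples of HSP90.2-TDNA and of HSP90.3-TDNA lay above every Col-0 sample, at signals below the filter's level. In hsp90.2-3 the signal was 149, 161 and 99.7, above the filter's level in all 3 samples, with a log2 change of 2.61 (SE 0.35, 1.90 to 3.32).

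**Figure D2:**
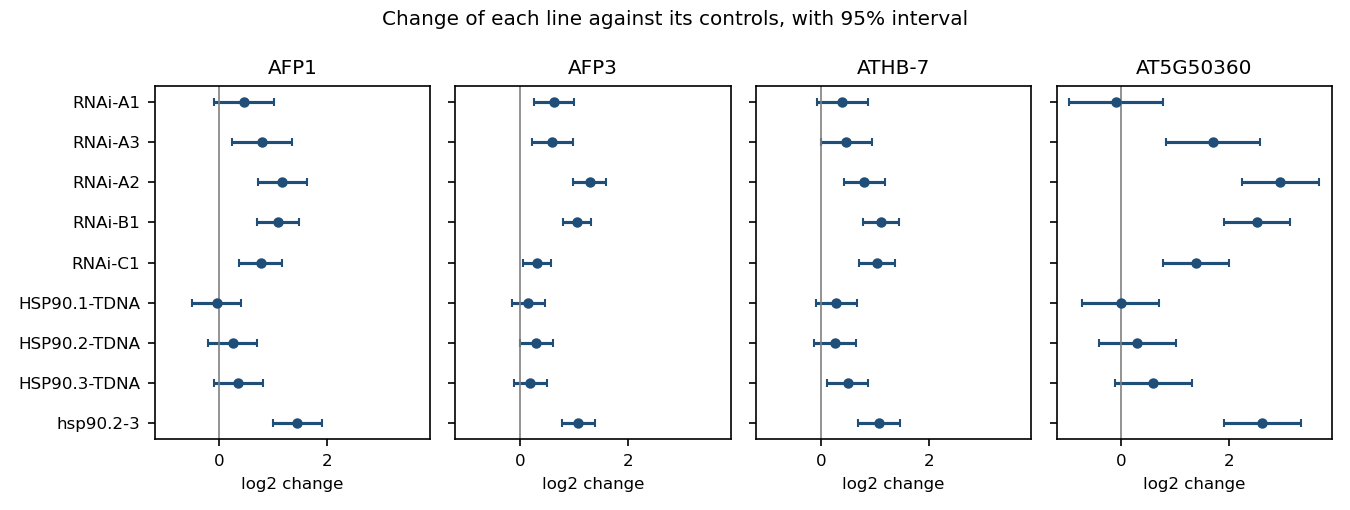
Difference of log2(signal + 16) between each HSP90-reduced line and the controls of its experiment (points, with 95% intervals from limma). All 4 genes have intervals above 0 in RNAi-A3, RNAi-A2, RNAi-B1, RNAi-C1 and hsp90.2-3, and those of the HSP90-TDNA lines include 0 except for ATHB-7 in HSP90.3-TDNA.

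Counted as calls, all 4 genes were higher in RNAi-A2, where 0.685% of probe sets were called higher, in RNAi-B1 (0.865%) and in hsp90.2-3 (5.25%). In RNAi-C1, 3 of the 4 were called (4.79%), all but AFP3. The count was 0 in RNAi-A1 (0% of probe sets), RNAi-A3 (0.012%), HSP90.1-TDNA (0.00601%), HSP90.2-TDNA (0%) and also HSP90.3-TDNA (0.048%). At an unadjusted p under 0.05 from limma, the genes higher in these 5 lines were 1, 4, 0, 0 and 1 in the same order. The methods' t-test at an unadjusted p under 0.05 counted 4 of the 4 in RNAi-A2, RNAi-B1 and hsp90.2-3, 3 in RNAi-C1, 1 in RNAi-A3 and HSP90.3-TDNA each, and 0 in RNAi-A1, HSP90.1-TDNA and HSP90.2-TDNA. After adjustment it called 3 of the 4 in RNAi-A2, 2 of the 4 in RNAi-B1 and 0 in each of the other 7 lines. For the lines run with Control-2 the methods name an analysis of variance instead, which was not run. The calls of AT5G50360 come after a filter that its own high lines decided, and they were also made with no filter. RNAi-A2 kept 2 calls when either of its samples was left out. No gene of the 4 was called lower in any line. Since the genes were chosen for these changes, nothing is read from the counts.

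The median log2 change over the 4 genes was 1.23 for RNAi-A2, 1.099 for RNAi-B1, 0.91 for RNAi-C1 and 1.26 in hsp90.2-3, while the median over all probe sets tested was 0.03, 0.01, 0.07 and -0.03. In RNAi-A1 and RNAi-A3 it was 0.43 and 0.69. For the insertion lines it was 0.07, 0.28 and 0.42, and over all probe sets these 5 lines had medians between -0.03 and 0.01. Of the insertion lines, HSP90.1-TDNA had the lowest median (0.07), then HSP90.2-TDNA (0.28) and HSP90.3-TDNA (0.42). By the paper's protein measurements, HSP90 was significantly lower in HSP90.2-TDNA and HSP90.3-TDNA and not in HSP90.1-TDNA. Whether the medians follow the protein level was not tested. Since the genes were chosen by these changes, the distance from all probe sets describes the choice and tests nothing.

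Averaged over the 9 reduced lines, the log2 change was 0.69 (SE 0.11) for AFP1, 0.62 (SE 0.07) for AFP3, 0.66 (SE 0.09) for ATHB-7 and 1.32 (SE 0.17) for AT5G50360, and all 4 were called, with 1.56% of probe sets called higher. Over the 5 RNAi lines the values were 0.85, 0.78, 0.77 and 1.68, and again 4 were called (0.522%). Over the 3 HSP90-TDNA lines they were 0.18, 0.21, 0.35 and 0.29, with 0 called (0%). At an unadjusted p under 0.05 from limma, for which no share of probe sets is given, 1 was higher. The mean RNAi change exceeded the mean HSP90-TDNA change by 0.67 (0.22 to 1.13) for AFP1, 0.56 (0.26 to 0.87) for AFP3, 0.42 (0.03 to 0.80) for ATHB-7 and 1.40 (0.68 to 2.11) for AT5G50360. These are 2 sets of lines from separate experiments with different controls. Both the mean of 9 lines and the HSP90-TDNA mean include 1 insertion line whose HSP90 protein was not lower in the paper.

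RNAi-C1, whose hairpin comes from HSP90.2, parted from the lines with HSP90.1 hairpins of the same experiment over AFP3 and AT5G50360. Its change was smaller than that of RNAi-A2 by 0.98 for AFP3 (difference -0.98, -1.32 to -0.64) and by 1.56 for AT5G50360 (difference -1.56, -2.36 to -0.77). Against RNAi-B1 the differences were -0.74 (-1.04 to -0.43) and -1.13 (-1.84 to -0.42). For ATHB-7 it stood beside RNAi-B1, at a difference of -0.06 (-0.45 to 0.32), and for AFP1 the intervals of both differences included 0 (-0.41 from RNAi-A2, -0.33 from RNAi-B1). Between RNAi-A2 and RNAi-B1 the intervals of all 4 differences included 0. The 3 lines share their control samples, which cancel in these differences.

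The point mutant and the insertion in the same gene, HSP90.2, also parted. The hsp90.2-3 change was larger than that of HSP90.2-TDNA by 1.19 (0.74 to 1.65) for AFP1, 0.78 (0.47 to 1.08) for AFP3, 0.81 (0.43 to 1.20) for ATHB-7 and 2.32 (1.61 to 3.03) for AT5G50360. All samples of the mutant exceeded all samples of the insertion line for each gene. The leaf marker RCA was 17344 to 18185 in hsp90.2-3 and 20174 to 24497 in Col-0, without overlap, and its part in these changes was not tested. The summed signal of the 2 root markers was 103 to 175 in the mutant and 168 to 227 in Col-0.

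Control lines were themselves compared, a contrast that played no part in choosing the genes. In Control-3 against Control-1, AFP1 was lower by a log2 difference of -0.56 (SE 0.22, limma adjusted p = 0.657) and ATHB-7 by -0.59 (SE 0.19, adjusted p = 0.470). AFP3 (-0.09, SE 0.15, adjusted p = 0.971) and AT5G50360 (-0.06, SE 0.35, adjusted p = 0.986) lay closer together. No gene of the 4 passed the adjusted threshold in either direction, with AFP1 and ATHB-7 under 0.05 before adjustment, and 0.00601% of probe sets were called higher and 0.036% lower. Vector lines without HSP90 sequence thus lay apart in ATHB-7 by -0.59, where the change in RNAi-A2 was 0.81.

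The choice of control line moved ATHB-7 and AFP1 accordingly. With Control-1 alone the ATHB-7 change was 0.51 for RNAi-A2, 0.82 for RNAi-B1 and 0.75 for RNAi-C1, and with Control-3 alone it was 1.11, 1.41 and 1.35. For AFP1 in the same lines it was 0.89, 0.81 and 0.48 with Control-1 and 1.45, 1.36 and 1.04 with Control-3. AFP3 and AT5G50360 moved little, from 1.25 to 1.34 and from 2.91 to 2.97 in RNAi-A2. With Control-1 alone, limma called 2 of the 4 genes for RNAi-A2, 3 for RNAi-B1 and 2 for RNAi-C1. No share of all probe sets called is given for that setting, so nothing is read from these counts.

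**Figure D3:**
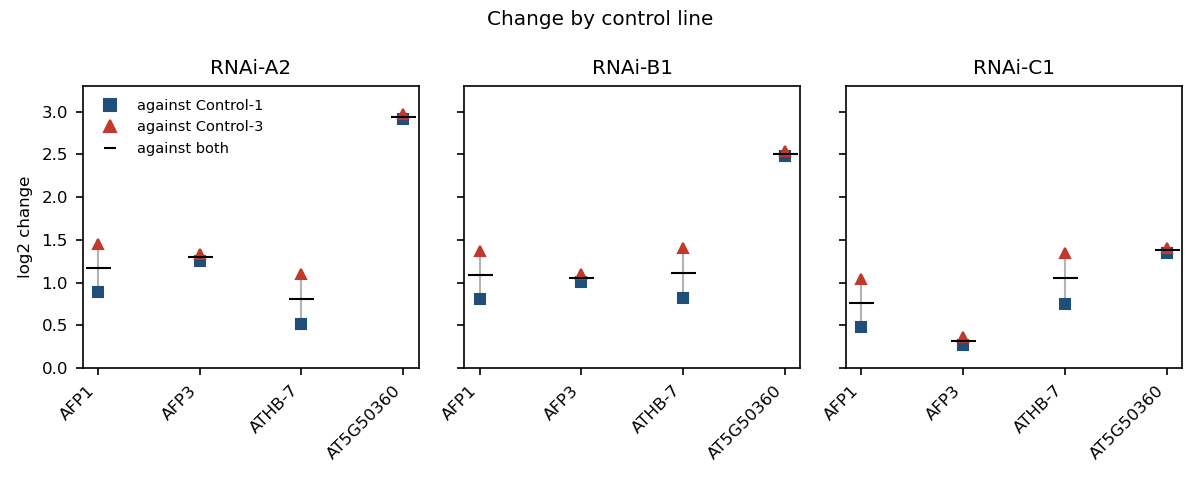
Log2 change of the 4 genes in RNAi-A2, RNAi-B1 and RNAi-C1 against Control-1 alone (blue squares), Control-3 alone (red triangles) or the mean of both (black bars). AFP1 and ATHB-7 differ by 0.56 and 0.59 between the control lines, AFP3 and AT5G50360 by 0.09 and 0.06.

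Levels also differed between the controls of the 3 experiments. Relative to Control-1 and Control-3 averaged, AFP3 was higher by 0.86 (0.55 to 1.16) in Control-2 and by 0.65 (0.39 to 0.92) in Col-0. Col-0 was higher for AFP1 by 0.53 (0.14 to 0.92), and its ATHB-7 and AT5G50360 differences were -0.61 (-0.94 to -0.28) and -0.79 (-1.40 to -0.17). RNAi-C1 had 375 to 477 for AFP3, below both samples of Control-2.

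By mean signal over all 13 lines, hsp90.2-3 led for AFP1 (1508 ± 283, SD, n = 3) and did not overlap RNAi-A2 (850.2 ± 60.0, n = 2), which came next. From RNAi-A2 down to Control-2 each line overlapped the next, and Control-3 came last (311 ± 91.3, n = 3). For AFP3 the mutant led (1129 ± 67.4, n = 3), clear of RNAi-A1 (953 ± 119, n = 2) but overlapping RNAi-A3 (941 ± 218, n = 2), whose higher sample was at 1095, and Control-1 and Control-3 closed the order, overlapping each other. ATHB-7 was led by RNAi-B1 (763 ± 162, n = 3), with overlap between neighbours down to hsp90.2-3 in place 6. AT5G50360 was led by RNAi-A2, then RNAi-B1 (227 ± 35.3, n = 3) without overlap between them, and the 8 lines from Control-1 down overlapped their neighbours, all at low signals.

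The 4 genes varied together over the 35 samples once the mean of the experiment's controls was taken from each sample. Pearson's r was 0.88 for AFP1 with AFP3, 0.84 for AFP3 with AT5G50360, 0.82 for AFP1 with AT5G50360, 0.80 for ATHB-7 with AT5G50360, 0.76 for AFP1 with ATHB-7 and 0.68 for AFP3 with ATHB-7. These points share arrays, control means and the line differences for which the genes were chosen, and no p is given. Within lines, after each line's mean was removed, r was 0.68 for AFP1 with AFP3 and 0.49 for ATHB-7 with AT5G50360. It was -0.09 to 0.23 for the other 4 pairs. RNAi-A3 had the widest log2 spread of all lines for both ATHB-7 (426 and 751) and AT5G50360 (32.1 and 172). How far its 2 samples carry the 0.49 was not tested. The AFP1 and AFP3 value pools all lines and did not hold in each. In Control-1, AFP1 was 464, 478 and 414 while AFP3 was 316, 344 and 360.4. In Control-3, AFP1 was 399, 316 and 217 while AFP3 was 331, 296 and 329.8. For both, sample 3 was the highest in Col-0, HSP90.1-TDNA and HSP90.2-TDNA.

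AFP1, AFP3 and ATHB-7 have no gene named in the probe table, so they were not among the genes searched for likeness. Their correlations with each other and with AT5G50360 are those given above. Of 9255 named genes, those whose centred values were most like AFP1 were AT5G15190 (r = 0.86), AT2G41190 (0.85) and AT1G16850 (0.83). Closest to AFP3 were AT5G50360 itself (0.84), AT3G11420 (0.84) and AT1G21790 (0.83). ATHB-7 was nearest to AT5G50360 (0.80), AT2G41190 (0.76) and AT1G64380 (0.71). For AT5G50360 the nearest were AT1G64380 (0.81), AT1G05340 (0.79) and AT3G50910 (0.77), over the same 35 samples. AT5G50360, AT2G41190 and AT1G64380 each appeared for more than 1 of the 4.

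Of 92 listed genes of abscisic acid signalling and response, 6 had a named probe set, and all 6 were tested. Receptors, phosphatases, SnRK2 kinases, corepressors and the enzymes of hormone synthesis and breakdown had none here and are not analysed. The 6 were EEL, a bZIP factor related to ABI5, AT3G48510, a relative of AT5G50360, and the stress protein genes LTI30 and COR47 (dehydrins), COR15A (a chloroplast cold-response protein) and LEA4-5 (a late embryogenesis abundant protein). In hsp90.2-3, 4 of the 6 were called higher by limma, where 5.25% of all probe sets were, while the methods' t-test called 0 after adjustment. Limma called none of the 6 lower in any line. The list was drawn up with earlier results of these data known, so its calls and adjusted p-values are not an independent test. LEA4-5 had 0 of the 4 control lines and 8 reduced lines above the filter's level, so it too was tested only through lines in which it is high.

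LEA4-5 rose most among them in hsp90.2-3, with 320.5, 299.9 and 257 against 24.4, 100.3 and 82.8 in Col-0. Its log2 change was 1.99 (SE 0.51, limma adjusted p = 0.0143), and the groups did not overlap. COR47 was 9197, 7024 and 8353 against 3673, 3911 and 5180 in Col-0, again apart, with a log2 change of 0.95 (SE 0.14, adjusted p = 0.000202). LTI30 was 1946 ± 690 (SD, n = 3) against 765 ± 285 (n = 3), a log2 change of 1.33 (SE 0.42, adjusted p = 0.0467). AT3G48510 was 139 ± 4.85 against 87.8 ± 24.7, a log2 change of 0.61 (SE 0.19, adjusted p = 0.0411). EEL (0.09) and COR15A (0.29) did not pass the threshold. The count of 4 fell to 1 without hsp90.2-3 sample 1 and to 2 without its sample 3, Col-0 sample 1 or Col-0 sample 2. With no filter COR47 and LEA4-5 were called (adjusted p = 0.000392 and 0.0229).

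In RNAi-A2, AT3G48510 rose from 63.97 ± 12.5 (n = 6) to 151 ± 23.3 (n = 2), a log2 change of 1.07 (SE 0.19, limma adjusted p = 0.00326), and it was the 1 listed gene called there. That call was lost without RNAi-A2 sample 1. LEA4-5 had log2 changes of 1.79, 1.53 and 1.14 for RNAi-A2, for RNAi-B1 and for RNAi-C1, at adjusted p = 0.0867, 0.0946 and 0.100, at signals of 84.4 to 207 against 9.09 to 66.7 in the controls. No listed gene was called in RNAi-B1, RNAi-C1, RNAi-A1, RNAi-A3 or the HSP90-TDNA lines. Before adjustment, limma found 3, 1, 0 and 0 listed genes higher with p below 0.05 in these RNAi lines, in that order. For the insertions of HSP90.1, HSP90.2 and HSP90.3 the numbers were 1, 0 and 2. How many of all probe sets reach that level is not given, so these counts have no background to be read against. The methods' t-test called 1 listed gene higher in each of RNAi-A2 (COR15A) and RNAi-B1 (LTI30) and 0 in RNAi-C1 and the lines run with Control-2 or Col-0, and it called LTI30 lower in RNAi-C1, which limma did not.

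Over the 9 lines, COR47 (mean log2 change 0.35, SE 0.07, limma adjusted p = 0.00595) and LEA4-5 (1.04, SE 0.24, adjusted p = 0.0199) were called higher, and both calls held with no filter (adjusted p = 0.0104 and 0.0328). Over the 5 RNAi lines LEA4-5 had a mean change of 1.24 (SE 0.29, adjusted p = 0.0464), and no listed gene was called there with no filter, quantile normalization, an offset of 4, the first technical replicate only, a replicate block, the failed array kept or Control-1 alone; leaving out single samples gave 0 or 1. LEA4-5 was -0.52 in HSP90.1-TDNA, where AFP1 was also not higher, and 1.20 in HSP90.3-TDNA, both short of the threshold. COR47 had a positive change in each of the 9 lines, from 0.05 in RNAi-C1 to 0.95 in hsp90.2-3. LTI30 was -0.42 in RNAi-C1 (SE 0.36), the line in which AFP3 changed least among the RNAi lines. Its signals there were 1022 to 1062, all below the 1363 to 1435 of Control-1 and Control-3. That SE pools the spread of all lines, and LTI30 spread more widely elsewhere, as in HSP90.1-TDNA (507 to 1816).

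**Figure D4:**
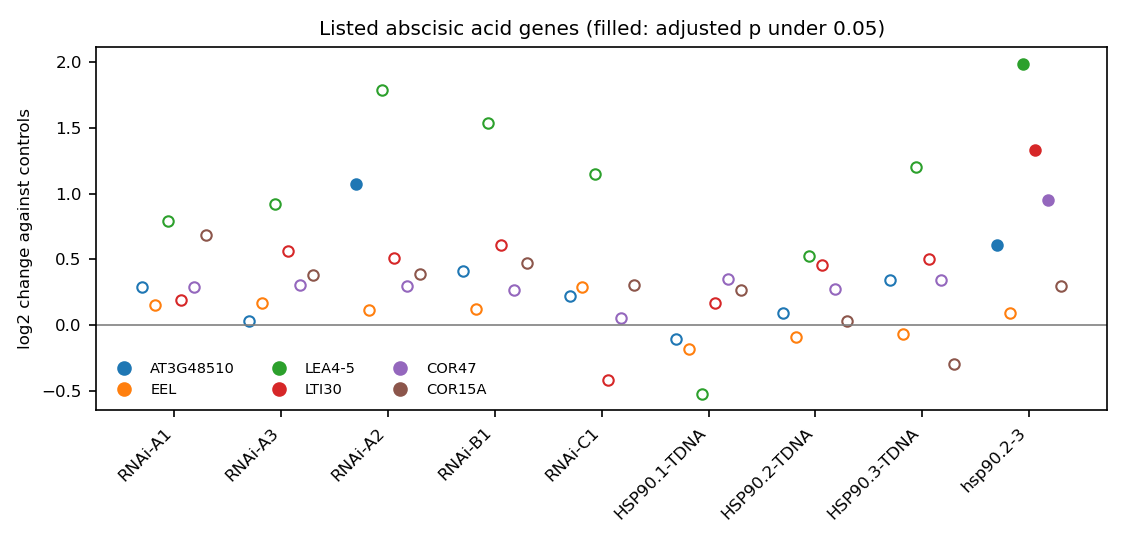
Log2 change against controls of the 6 listed abscisic acid genes with a named probe set in each HSP90-reduced line (filled points: adjusted p under 0.05 in limma). Filled points are AT3G48510 in RNAi-A2 (1.07) and LEA4-5, LTI30, COR47 and AT3G48510 in hsp90.2-3 (1.99, 1.33, 0.95 and 0.61).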

How the data were processed

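RNA from aerial tissue of 35 biological samples of 13 lines was measured on 38 ATH-1 arrays. The deposited intensity values are linear MAS5 signals for each array and probe set, scaled by the authors. No MAS5 version is given in the sources used here. The methods name PLIER instead, but trimmed means of 499.7 to 499.9 on every array fit MAS5 scaling. The table has no detection calls. The number of arrays limits the precision.

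All fits used limma 3.58.1 (R 4.3.3). Signals were taken as log2(signal + 16), which understates changes of dim genes, and arrays of 1 sample were averaged as such. Of 22810 probe sets, 64 array controls were set aside. A probe set was tested if a line's log2 mean exceeded the 35th percentile, a signal of 91.1. The limma model held 1 mean per line (22 residual degrees of freedom, prior 3.27), with Benjamini-Hochberg adjustment over 16651 probe sets. It was tested on simulated data. Gene names need a probe set with 1 gene (13513, with 503 of several genes and 8730 of none).

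Lines were compared with the controls of their experiment. The experiment of hsp90.2-3 is not named, and wherever samples were grouped by experiment this line was placed with Col-0. Members and lists were chosen with earlier results of these data known. Named genes are the 4 members, listed genes, and for each member the 3 most like it by Pearson's r among genes named in the probe table. Alternatives were quantile normalization, other offsets and filters, the replicate number as a block, other samples or controls in the fit, the first technical replicate, the failed array kept, the methods' t-test and each sample left out. Control-1 or Control-3 alone, and a block among Col-0 and the insertion lines only, were added after seeing the data.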

Additional observations from a re-analysis of the deposited data

Results flagged for a closer look

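The failed array of RNAi-A3 sample 2, which no comparison used, gave a signal of 1637 for AFP3 and 975.5 for AT5G50360, both above the Control-2 samples (602 to 615 and 7.13 to 20.9). The second array of the same sample gave 1095 and 172. On the failed array AFP1 was 288 and ATHB-7 402, against 834 and 751 on the second. Over all probe sets the median absolute log2 difference between these 2 arrays was 1.12, against 0.146 and 0.137 for the technical pairs of Control-2 and RNAi-A1.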

How the results depend on the processing

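Of 628 alternative values of single-line changes of the 4 genes, 577 moved by less than the spread between replicates and 51 moved more, as did 6 for means of lines. Many of the 577 could not move, so that count does not measure stability. Another filter, or a fit to the samples of the line's experiment only, leaves a line's change as it is. So do the failed array and the choice of technical replicate in comparisons without such arrays. For AT5G50360 an offset of 64 gave 0.80 over the 9 lines and 1.08 over the RNAi lines. With all 4 control lines as controls, the mean HSP90-TDNA change was 0.51 for AFP1, 0.49 for AFP3, -0.17 for ATHB-7 and -0.17 for AT5G50360, and AFP3 in RNAi-C1 was -0.06. That setting mixes experiments whose control levels differ. It called 2 of the 4 genes in RNAi-A1, 4 in RNAi-A3, 1 in HSP90.1-TDNA, 2 each in HSP90.2-TDNA, HSP90.3-TDNA and the mean of HSP90-TDNA lines. It called 2 listed genes each in RNAi-A1, RNAi-A3 and RNAi-A2, 1 each in RNAi-B1, HSP90.3-TDNA and the mean of HSP90-TDNA lines, and 4 over the RNAi lines. With the failed array kept, 2 of the 4 genes were called in RNAi-A3, with 2 listed genes in hsp90.2-3 and 0 over the RNAi lines. Control-1 alone gave 2 of the 4 genes in RNAi-A2, and 1 listed gene over the 9 lines and 0 over the RNAi lines. The methods' t-test called 2 of the 4 genes in RNAi-B1 and 0 in RNAi-C1 and hsp90.2-3, and 1 listed gene in RNAi-B1 and 0 in hsp90.2-3.

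Only the samples of the experiment in the fit gave 1 listed gene in hsp90.2-3, 2 in RNAi-C1, 3 in RNAi-B1 and 4 in RNAi-A2. The 50th percentile filter gave 0 in RNAi-A2, and no filter gave 2 in hsp90.2-3 and 0 over the RNAi lines, as did quantile normalization, an offset of 4 and the first technical replicate for the RNAi lines (0 each). Leaving out single samples gave 0 to 1 of the 4 genes called in RNAi-A3, 2 to 4 in RNAi-A2 and 2 to 3 in RNAi-C1. For listed genes it gave 0 to 1 in RNAi-A2, 1 to 4 in hsp90.2-3, 1 to 3 over the 9 lines (1 without Control-2 sample 2 or Col-0 sample 1) and 0 to 1 over the RNAi lines. A line left with 1 sample was assumed to vary like the others. The cause of these differences was not tested. For the alternative settings no share of all probe sets called is given, so their counts are not read against a background.

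Replicate numbers did not pair the samples over the series as a whole. Same-numbered samples of different lines of an experiment had a median correlation of deviations of 0.047 (range -0.220 to 0.356, 62 pairs), against -0.033 for other numbers. In lines run with Control-1 and Control-3 the median was 0.053 (over 0.1 in 10 of 26 pairs), against -0.033 (5 of 52). With 2 samples a line, those run with Control-2 had -0.091 against 0.091. Pairs of hsp90.2-3 with Col-0 and the HSP90-TDNA lines had -0.054 against 0.008, and the batch of hsp90.2-3 was not tested. Among Col-0 and the HSP90-TDNA lines the median was 0.132 (range -0.001 to 0.356, over 0.1 in 11 of 18 pairs), against -0.067. That is a hint of shared deviations short of every pair. A block among these 4 lines only, added after seeing the data, called 0 of the 4 genes in each insertion line and in their mean, with intervals for AFP3 of 0.04 to 0.56 in HSP90.2-TDNA and 0.001 to 0.43 in the mean, both above 0 where the unblocked ones included it. With the replicate number as a block in every experiment, 4 of the 4 genes were called in RNAi-A2, RNAi-B1, hsp90.2-3 and over the 9 lines, and 0 listed genes over the RNAi lines in place of 1, and no other count of calls changed. Precision was limited by 2 or 3 samples a line and, for AT5G50360 and LEA4-5, by signals near or below the filter's level.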
